A study of Mus musculus with 11 samples.

Results

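Pitpnm1, Pitpnm2 and Pitpnm3 are the 3 mouse genes of the Pitpnm family, taken here with their GRCm38 spans and 1 kb on either side. They are 3 of 23558 genes with at least 5 C positions listed in every assigned library. They were selected on LSK methylation, because Pitpnm2 held many 1000-bp tiles with lower DNA methylation in Dnmt3a knockout LSK cells, so the difference between knockout and control LSK cells is given for them as a description, with no test. The difference between knockout and control GMP cells was not the contrast of that choice and was tested. The genes and tests were, however, chosen with earlier results of these data known.

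Pitpnm proteins are large phosphatidylinositol transfer proteins, related to the retinal degeneration B protein of the fly. They sit where the endoplasmic reticulum touches the plasma membrane, held there by VAP proteins, and carry phosphatidylinositol outward and phosphatidic acid back after phospholipase C has used up phosphatidylinositol bisphosphate. Pitpnm1 and Pitpnm2 carry the transfer domain, whereas Pitpnm3 lacks it. DNA methylation at CpG sites is usually absent from CpG-dense promoters and high inside gene bodies, and Dnmt3a is among the enzymes that place it on unmethylated sites.

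The study measured CpG methylation by enhanced reduced representation bisulfite sequencing of MspI-digested DNA from sorted bone marrow cells of C57BL/6 mice. The libraries were 3 from Dnmt3a f/f Mx1-Cre+ LSK cells (knockout LSK: 1327, 1333 and 1334), 3 from Dnmt3a f/f Mx1-Cre- LSK cells (control LSK: 1326, 1330 and 1331), 2 from Mx1-Cre+ GMP cells (knockout GMP: 178 and 179) and 2 from Mx1-Cre- GMP cells (control GMP: 346 and 349). LSK cells (Lin- Sca1+ cKit+) include the blood stem cells, and GMP cells (Lin- Sca1- cKit+ CD34+ FcgR+) are granulocyte and macrophage progenitors. All animals carried the floxed gene, were injected 5 times with poly(I:C), which switches on the interferon-responsive Mx1 promoter, and were 12 months old, so controls share the floxed allele and the injections. Mx1-Cre is also active outside blood cells. Another GMP library, 352, is Cre-positive by its title but Cre-negative by its genotype field, so it is given apart and entered no comparison. Nothing in the labels says that each library came from its own animal, so a p-value covers only the variation from library to library, which may be technical.

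A listed C position was read a median of 85 to 103 times in LSK libraries (157.4 to 181.1 M reads summed over positions; M, 1e6) and 50 to 59 times in GMP libraries (95.41 to 109.7 M). Cell type and sequencing depth therefore cannot be told apart. In Dnmt3a, 5 C positions on chromosome 12 between 3903653 and 3904031 were unlisted, meaning under 10 reads, in all knockout LSK libraries and in library 352. Their summed coverage was 104 reads in knockout GMP 178 and 215 reads in knockout GMP 179, against 306 reads in control GMP 346 and 445 reads in control GMP 349, so both knockout GMP libraries still held reads over the segment missing in knockout LSK. Gene levels were compared by a quasi-binomial test, and a call needed an adjusted p under 0.05 and 10 points. Of the genes that mark GMP cells, 3 of 5 were called lower in control GMP than in control LSK, beside 0.666% of all genes. Among them was Mpo, a granule peroxidase, with 47.3% in control GMP against 88.9% in control LSK (quasi-binomial test, adjusted p = 0.00047). Of 4 measured LSK marker genes, 0 were called in either direction between these control cells. None of the 9 measured GMP and LSK marker genes passed the test between knockout and control GMP. The stem cell factor gene Hlf was the 1 called lower in knockout LSK, beside 0.362% of all genes. The share of each cell type inside a sorted fraction was not measured, so fewer methylated cells and less methylation per cell cannot be told apart.

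Pitpnm2 lies on chromosome 5 from 124118689 to 124249910, on the minus strand. RefSeq (GRCm38.p6) gives it a start site at 124249760 and an internal one at 124187182. Of 525 C positions listed in any library, 375 were listed in all 10 assigned libraries, and 34 tiles held at least 3 of these. Pitpnm1 lies on chromosome 19 from 4099998 to 4113966, on the plus strand, with 95 of 120 positions listed in all 10 libraries and 8 such tiles. Pitpnm3 lies on chromosome 11 from 72047528 to 72135889, on the minus strand, with 150 of 214 positions and 9 such tiles. A further 16 tiles of Pitpnm2 and 11 of Pitpnm3 held 1 or 2 positions and were not tested. Counts, ranges and figures of tiles cover those with at least 3 positions unless said otherwise.

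The RefSeq table (GRCm38.p6) gave the 3 genes 5 promoters, each running from 250 bases before to 50 bases after a start site. The promoter of a second Pitpnm1 start, at 4100622, is not printed. It held 11 CG, 1 CCGG and 5 listed positions, with levels of 0% to 1.29% in the 10 assigned libraries. The others are shown because they differ in how many CpG sites the MspI method could read. Listed C positions ran from 61 at the main Pitpnm2 start to none at its internal start. Each promoter shown is printed 5′ to 3′ on the gene's own strand. Capitals mark a CG whose C, on either strand, was listed in all 10 libraries.
Pitpnm2, main start, chr5:124249711-124250010 (minus strand): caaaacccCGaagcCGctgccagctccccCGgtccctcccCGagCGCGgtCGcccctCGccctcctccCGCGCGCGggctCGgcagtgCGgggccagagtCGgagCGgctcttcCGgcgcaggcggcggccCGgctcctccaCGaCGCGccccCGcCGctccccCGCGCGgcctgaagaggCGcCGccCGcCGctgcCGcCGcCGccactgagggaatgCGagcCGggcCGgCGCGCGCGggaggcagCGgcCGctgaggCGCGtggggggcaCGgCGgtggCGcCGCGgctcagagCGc
Pitpnm2, internal start, chr5:124187133-124187432 (minus strand): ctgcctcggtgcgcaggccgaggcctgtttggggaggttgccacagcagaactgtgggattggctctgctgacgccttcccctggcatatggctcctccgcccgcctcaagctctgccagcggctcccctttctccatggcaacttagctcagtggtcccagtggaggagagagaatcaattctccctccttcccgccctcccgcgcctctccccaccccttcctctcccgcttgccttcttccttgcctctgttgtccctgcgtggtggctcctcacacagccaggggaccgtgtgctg
Pitpnm3, chr11:72135840-72136139 (minus strand): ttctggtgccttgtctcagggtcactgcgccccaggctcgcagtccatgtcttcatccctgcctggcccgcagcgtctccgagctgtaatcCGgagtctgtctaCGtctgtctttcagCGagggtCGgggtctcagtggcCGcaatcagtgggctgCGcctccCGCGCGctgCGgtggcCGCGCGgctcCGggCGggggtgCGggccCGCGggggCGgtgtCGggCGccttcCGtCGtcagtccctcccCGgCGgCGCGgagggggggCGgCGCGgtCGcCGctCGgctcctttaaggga
Pitpnm1, first start, chr19:4099748-4100047 (plus strand): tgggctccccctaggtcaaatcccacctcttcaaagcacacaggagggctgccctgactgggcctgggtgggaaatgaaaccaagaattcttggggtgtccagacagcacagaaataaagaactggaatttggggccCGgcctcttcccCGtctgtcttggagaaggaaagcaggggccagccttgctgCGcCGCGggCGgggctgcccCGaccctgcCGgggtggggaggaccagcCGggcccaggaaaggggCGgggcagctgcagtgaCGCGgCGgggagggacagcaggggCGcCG

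The main Pitpnm2 promoter held 53 CG and 5 CCGG, the letters MspI cuts, with 61 C positions listed in all 10 libraries. Fewer CG were found in 99.5% of the 32851 promoters of the table, whose median is 7 CG. CCGG reads the same on both strands and contains CG, and 52.8% of the promoters held it. The Pitpnm3 promoter held 38 CG and 3 CCGG with 44 listed positions, and the first Pitpnm1 promoter 15 CG and 3 CCGG with 19. The internal Pitpnm2 promoter held 13 CG, no CCGG and no listed position, so its methylation was not read in this window.

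The 3 printed promoters with listed positions were nearly free of methylation in every library. The main Pitpnm2 promoter had a level of 0.137% to 0.224% in knockout LSK, 0.0970% to 0.108% in control LSK, 0.0212% to 0.0753% in knockout GMP and 0.0435% to 0.121% in control GMP. The Pitpnm3 promoter had 0.178% to 0.344% in knockout LSK, 0.384% to 0.750% in control LSK, 0.681% to 0.731% in knockout GMP and 0.406% to 0.828% in control GMP. The first Pitpnm1 promoter stayed between 0% and 1.34% in all 10. The nearest listed C position to the internal Pitpnm2 start, at 124187831, had 4.23%, 0% and 0% in knockout LSK, against 6.25%, 5.00% and 4.11% in control LSK. It had 36.4% and 15.2% in knockout GMP, against 29.6% and 24.1% in control GMP. This position, with a mean coverage of 49.6 reads, was alone in its tile and was not tested.

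Methylation inside Pitpnm2 was high along most of the gene, with 26 of 34 tiles above 80% in control LSK. It dipped in parts of a stretch 28.3 to 36.3 kb into the gene from its main start. By mean in control LSK, tiles 124214001, 124215001 and 124221001 of the stretch had 25.7%, 44.2% and 4.94%. Tiles 124213001, 124218001 and 124219001 of the stretch were above 80% in control LSK, with 85.5%, 89.0% and 82.0%. This stretch, chosen after its values were seen, spans 124213001 to 124222000 and holds 6 tiles with 38 C positions. No exon map was used here, so whether a tile is exonic or intronic is not given. Tested tiles away from the stretch that were not above 80% were those at the main start, and tiles 56.3, 115.3 and 129.3 kb in, the last of them close to the other end of the gene. The RefSeq table also places 4 lncRNA genes in the window, Gm52788 at 124131413 to 124134824, LOC115490137 at 124175401 to 124193290, Pitpnm2os2 at 124194900 to 124200346 and Pitpnm2os1 at 124229725 to 124237137.

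**Figure D1:**
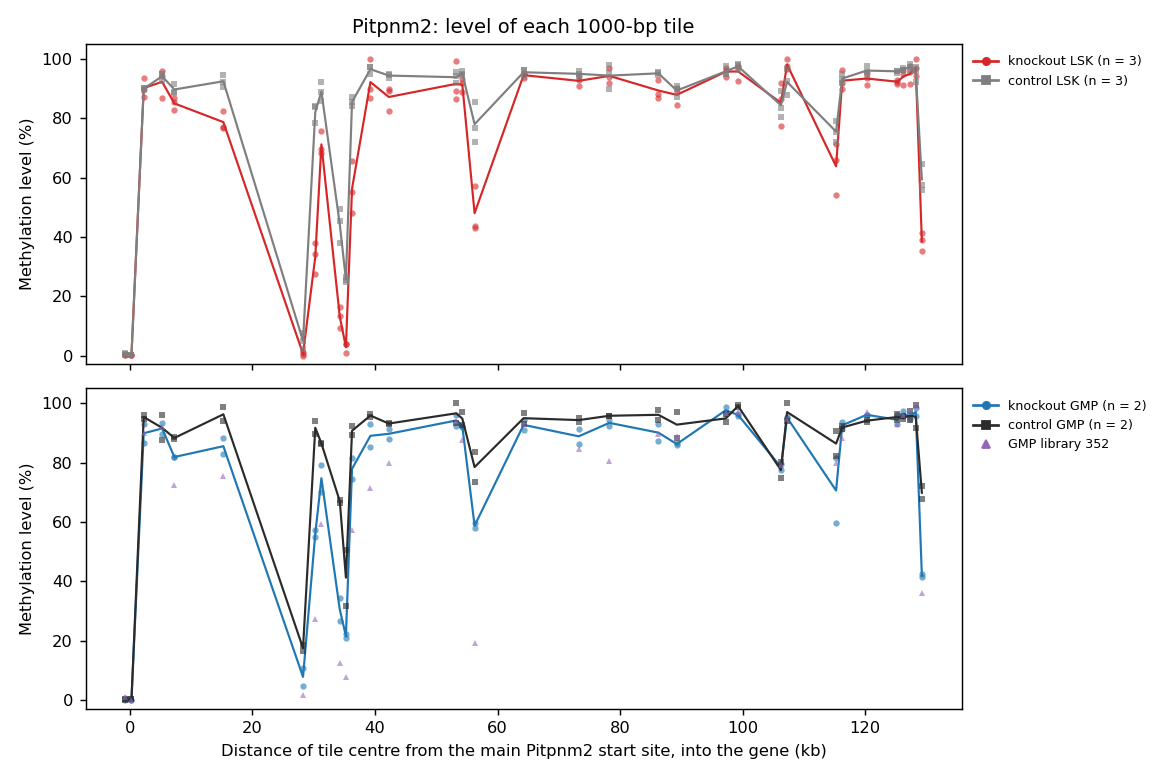
Methylation level in percent (y) of each 1000-bp tile of Pitpnm2 against the distance of its centre from the main start site in kb (x), LSK above and GMP below. Points are libraries, triangles library 352, and lines join group means. The level is near 0% at the start and dips again in some tiles of the stretch 28.3 to 36.3 kb in. In every tile of that stretch the knockout points lie under the control points in both cell types.

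In LSK cells, 6 Pitpnm2 tiles passed the threshold that chose the genes, an adjusted p under 0.05 with a pooled difference of at least 20 points, and all 6 were lower in knockout cells. Over all tiles, 0.871% were called lower and 0.0028% higher by this rule. Pooled differences in the 6 were -49.7 points at 124219001, -31.7 at 124215001, -28.5 at 124213001, -28.2 at 124193001, -22.9 at 124214001 and -21.3 at 124120001. Just outside the threshold were the tiles at 124218001 with -16.8 points and at 124234001 with -14.0 points. Because these values chose the genes, nothing further is read from them.

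The Pitpnm2 tile with the lowest knockout LSK level relative to control, 124219001 to 124220000, lies 30.3 kb from the main start. It had 34.1%, 27.5% and 38.1% in knockout LSK, against 83.6%, 84.2% and 78.3% in control LSK. It had 54.7% and 57.2% in knockout GMP, against 89.6% and 93.9% in control GMP. Knockout libraries lay below control libraries in both cell types with no overlap, and the knockout GMP libraries lay between the knockout and the control LSK libraries. In GMP the pooled level was 56.2% in knockout and 91.9% in control, a difference of -35.7 points (quasi-binomial test, adjusted p = 0.0235). The call was lost with the GMP libraries alone in the fit and without each of the 4 GMP libraries in turn, where the difference stayed between -37.7 and -31.95 points. All 9 of its C positions, which lie within 63 bp, were lower in knockout GMP, with differences of -62.3 to -20.2 points.

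The tile at 124215001 to 124216000, 34.3 kb in, had 16.5%, 9.35% and 13.5% in knockout LSK, against 45.3%, 49.6% and 37.9% in control LSK. It had 26.4% and 34.4% in knockout GMP, against 67.5% and 66.4% in control GMP. Knockout GMP libraries lay below both control GMP libraries and under every control LSK library as well. The pooled GMP level was 30.9% in knockout and 67.0% in control, a difference of -36.0 points (quasi-binomial test, adjusted p = 0.0435). The call was lost in 9 of 11 alternatives, while the difference over all 11 stayed between -40.5 and -32.5 points. All 6 C positions were lower in knockout GMP, with differences of -52.5 to -23.9 points.

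These were the only 2 of the 51 tested tiles of the 3 genes called in GMP, where 0.0869% of 100150 tiles were called lower and 0.00999% higher. Without knockout GMP 178, control GMP 346 or control GMP 349, the number called over all tiles was 0, 0 and 1, and without knockout GMP 179 it was 49, with no Pitpnm tile among them in any of these fits.

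The tile at 124120001 to 124121000 begins 1312 bp inside the end of the gene that lies opposite its start. It had 39.1%, 41.2% and 35.2% in knockout LSK, against 55.9%, 64.7% and 57.5% in control LSK. It had 41.5% and 42.4% in knockout GMP, against 67.6% and 72.0% in control GMP. The groups did not overlap in either cell type, but the GMP difference of -27.4 points did not pass the test (quasi-binomial test, adjusted p = 0.101), and among the alternatives it was called only by Fisher's exact test on reads summed per group, which leaves library-to-library variation out.

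The tile at 124193001 to 124194000, 56.3 kb in, overlaps the end of LOC115490137. It had 43.1%, 57.1% and 43.7% in knockout LSK, against 71.9%, 85.3% and 76.6% in control LSK. It had 57.9% and 59.5% in knockout GMP, against 73.5% and 83.4% in control GMP. The pooled GMP difference was -20.4 points (adjusted p = 0.341, quasi-binomial test), so it did not pass although the libraries of each group kept apart.

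In the other 4 tiles of the stretch the knockout libraries lay below the control libraries of their cell type, and none of the 4 passed the test in GMP. Tile 124214001 to 124215000 had 3.74%, 3.88% and 0.826% in knockout LSK, against 25.6%, 24.8% and 26.6% in control LSK. It had 20.8% and 22.3% in knockout GMP, against 50.6% and 31.8% in control GMP. The 2 control GMP libraries differed from each other by more than the knockout ones did, and the pooled GMP difference of -17.5 points did not pass (adjusted p = 0.366, quasi-binomial test).
Tile 124213001 to 124214000 had 65.5%, 48.0% and 55.1% in knockout LSK, against 85.3%, 87.1% and 84.0% in control LSK. It had 74.3% and 81.4% in knockout GMP, against 92.3% and 89.1% in control GMP. Here the knockout GMP libraries lay closer to their controls than the knockout LSK libraries did, and the pooled GMP difference was -12.1 points (adjusted p = 0.420, quasi-binomial test).
Tile 124218001 to 124219000 had 68.2%, 75.8% and 69.5% in knockout LSK, against 92.2%, 88.8% and 85.9% in control LSK. It had 79.3% and 70.1% in knockout GMP, against 86.3% and 86.6% in control GMP. No library of a knockout group reached the level of any control library of its cell type, but the pooled GMP difference of -13.4 points did not pass (adjusted p = 0.479, quasi-binomial test).
Tile 124221001 to 124222000 had 1.10%, 0% and 0.518% in knockout LSK, against 7.69%, 5.02% and 2.12% in control LSK. It had 4.74% and 10.8% in knockout GMP, against 18.5% and 16.4% in control GMP. The highest levels of this otherwise low tile were those of control GMP, and the pooled GMP difference of -9.67 points did not pass (adjusted p = 0.447, quasi-binomial test).

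**Figure D2:**
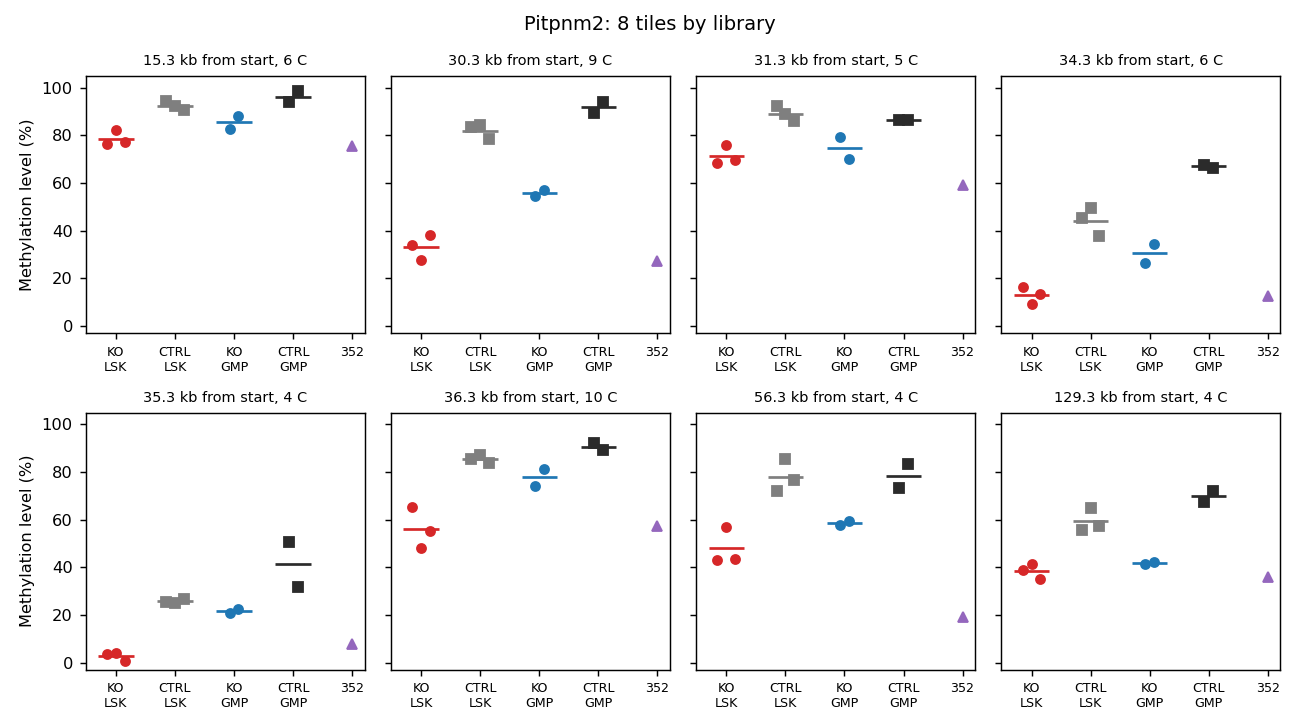
Methylation level in percent (y) of 8 Pitpnm2 tiles by group (x), with each library as a point, library 352 as a triangle, the group mean as a bar and the number of C positions above each panel. In the tile 30.3 kb from the start, knockout GMP libraries sit at 54.7% and 57.2% and control GMP libraries at 89.6% and 93.9%.

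The stretch was chosen after its values were seen, so counts of its single C positions are a description of what chose it. By group mean, 37 of 38 were lower in knockout GMP than in control GMP, with a median difference of -21.8 points, and 22 were lower by at least 20 points. Over all 1293035 positions listed in the 10 libraries, 32.2% were lower in knockout GMP, 24.6% higher, and 1.38% lower by at least 20 points. Of the other 337 Pitpnm2 positions, 119 were lower in knockout GMP, 77 were higher and 141 were equal, and 9 were lower by at least 20 points. Positions of the same CpG or read share their source and are not replicates. The position with the largest GMP difference, 124219216 on the minus strand, had 14.7%, 3.80% and 15.1% in knockout LSK, against 84.0%, 75.4% and 71.2% in control LSK. It had 34.1% and 25.4% in knockout GMP, against 91.2% and 93.0% in control GMP. The position at 124214096 on the minus strand was named after its values were seen. This position had 12.4%, 18.2% and 1.94% in knockout LSK, against 66.7%, 67.1% and 63.9% in control LSK. It had 40% and 59.2% in knockout GMP, against 88.2% and 97.3% in control GMP. Both positions were separated by genotype in each cell type, with all knockout libraries below all controls.

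**Figure D3:**
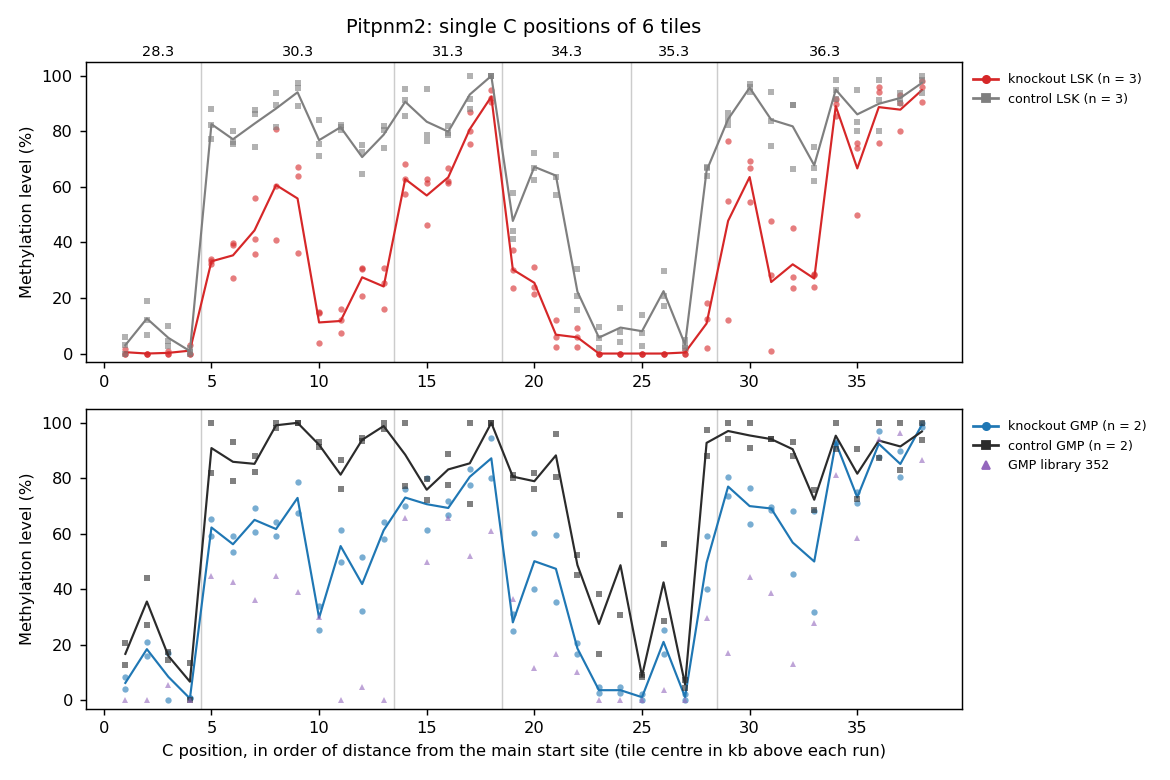
Methylation level in percent (y) of the 38 C positions in the 6 tiles of the Pitpnm2 stretch, in order of distance from the main start site (x), LSK above and GMP below. Points are libraries, triangles library 352, lines join group means and vertical lines part the tiles. Positions differ widely within a tile, and at 37 of 38 positions the knockout GMP mean lies under the control GMP mean.

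Across all 34 Pitpnm2 tiles in GMP, both knockout libraries lay below both control libraries in 21 tiles and above both in 3, against 25.9% of all tiles below and 11.2% above. The median difference between group means over the 34 tiles was -3.24 points, beside -0.326 points between pooled levels over all tiles tested. Tiles of a gene are not independent, and this share was not tested. In LSK, the contrast that chose the genes, all knockout libraries lay below all control libraries in 16 of 34 tiles and above them in none at the positions listed in the 6 LSK libraries, against 15% and 3.38% of all tiles there.

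How far Pitpnm2 tiles differed went with how methylated they were in control LSK. In the 12 tiles between 20% and 90%, the median difference was -19.3 points in LSK and -14.3 points in GMP, and 11 of the 12 had both knockout GMP libraries below both controls. In the 19 tiles above 90% the medians were -2.37 and -2.25 points, and 8 of 19 were below in GMP. In the 3 tiles under 20%, differences in GMP ran from -9.68 to 0.251 points. The control LSK level is part of the LSK contrast, so this is a description only. Of the high tiles, the one at 124234001 to 124235000, inside Pitpnm2os1, had 76.5%, 82.3% and 77.2% in knockout LSK, against 94.5%, 92.3% and 90.5% in control LSK. It had 82.7% and 88.3% in knockout GMP, against 93.9% and 98.6% in control GMP. Its groups did not overlap, and its pooled GMP difference of -10.5 points did not pass (adjusted p = 0.258, quasi-binomial test). The tile at 124134001 to 124135000, 115.3 kb in and overlapping Gm52788, was chosen after its values were seen. It had 71.4%, 54.0% and 65.9% in knockout LSK, against 75.4%, 79.1% and 71.9% in control LSK. It had 59.7% and 81.4% in knockout GMP, against 90.7% and 82.1% in control GMP. The groups kept apart in both cell types, but by a narrow gap, with knockout GMP 179 close to the lower control GMP library.

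**Figure D4:**
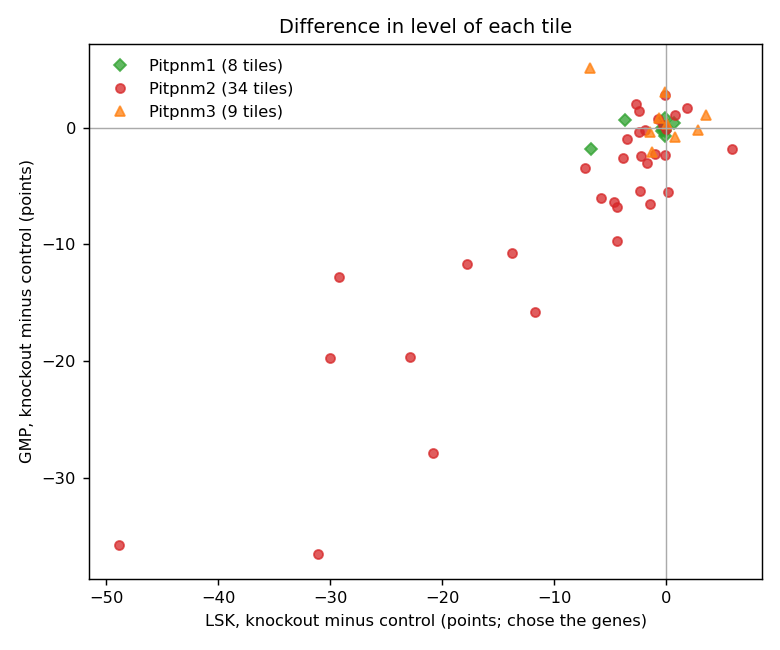
Knockout minus control difference in level, in percentage points, of each tile of the 3 genes in GMP (y) against LSK (x), from group means, for tiles with at least 3 C positions. The comparison on the x axis chose the genes. The Pitpnm2 tiles reach -48.8 points in LSK and -36.6 points in GMP, whereas the Pitpnm1 and Pitpnm3 tiles shown stay between -6.84 and 5.07 points on both axes.

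Averaged over its whole window, Pitpnm2 differed by a few points. Its mean level over C positions was 46.2% ± 0.797 in knockout GMP (SD, n = 2), with 45.7% and 46.8%, and 49.9% ± 0.336 in control GMP (SD, n = 2), with 49.7% and 50.1%. Both knockout libraries were below both controls and the difference was -3.64 points (exact two-sided permutation test, p = 0.333, the smallest that 2 against 2 libraries can give). Weighted by coverage, the difference was 0.497 points instead, so its sign depended on how positions were weighted, and the pooled gene level was not called (quasi-binomial test, adjusted p = 1). In LSK the mean was 44.4% ± 0.349 in knockout and 48.8% ± 0.284 in control (SD, n = 3 each), which is given as a description. In GMP, 0.00424% of 23558 genes were called lower and none higher at a difference of at least 10 points, with 1540 genes at an unadjusted p under 0.05.

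No tile of Pitpnm1 or Pitpnm3 was called in GMP. Pitpnm1 averaged 29.1% ± 0.324 in knockout GMP and 29.7% ± 0.275 in control GMP (SD, n = 2 each), a difference of -0.512 points (exact permutation test, p = 0.333). Pitpnm3 averaged 25.7% ± 0.203 in knockout GMP and 25.9% ± 0.755 in control GMP (SD, n = 2 each), a difference of -0.142 points (exact permutation test, p = 1). In Pitpnm1, 0 of 8 tiles had both knockout GMP libraries below both controls and 1 had them above. In Pitpnm3 these numbers were 1 and 2 of 9. Over all tiles the shares were 25.9% below and 11.2% above. Whether the genes differ from each other in their response was not tested.

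Pitpnm1 was split into unmethylated ends and a methylated middle. In 4 of its 8 tiles all libraries stayed under 5%, and the other 4 were above 80% in control LSK. The tile at 4111001 to 4112000 had the largest GMP difference of the gene. It had 89.9%, 87.3% and 87.8% in knockout LSK, against 93.0%, 96.6% and 95.5% in control LSK. It had 94.4% and 93.2% in knockout GMP, against 97.0% and 94.2% in control GMP. The groups parted in LSK but overlapped in GMP, where the pooled difference was -1.52 points (quasi-binomial test, adjusted p = 0.917).

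In 1 tested Pitpnm3 tile, 72130001 to 72131000, 5.39 kb into the gene, the libraries of the genotypes kept apart in both cell types but in opposite directions. It had 9.33%, 11.02% and 8.51% in knockout LSK, against 16.7%, 14.5% and 18.2% in control LSK. It had 17.8% and 16.9% in knockout GMP, against 12.4% and 12.3% in control GMP. Knockout libraries were below all controls in LSK and above both in GMP, where the pooled difference of 5.02 points did not pass (quasi-binomial test, adjusted p = 0.669). The 5 tested Pitpnm3 tiles above 80% in control LSK had GMP differences of -0.802 to 3.06 points between group means. Among the tiles of 1 or 2 positions, named after its values were seen, 72134001 to 72135000 held a lone position at 72134939 with a mean coverage of 44 reads. It had 54.8%, 53% and 27.3% in knockout LSK, against 48.7%, 29.4% and 37.8% in control LSK. It had 37.5% and 36.4% in knockout GMP, against 72.2% and 58.6% in control GMP. The groups overlapped in LSK and parted in GMP, and the position was not tested.

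**Figure D5:**
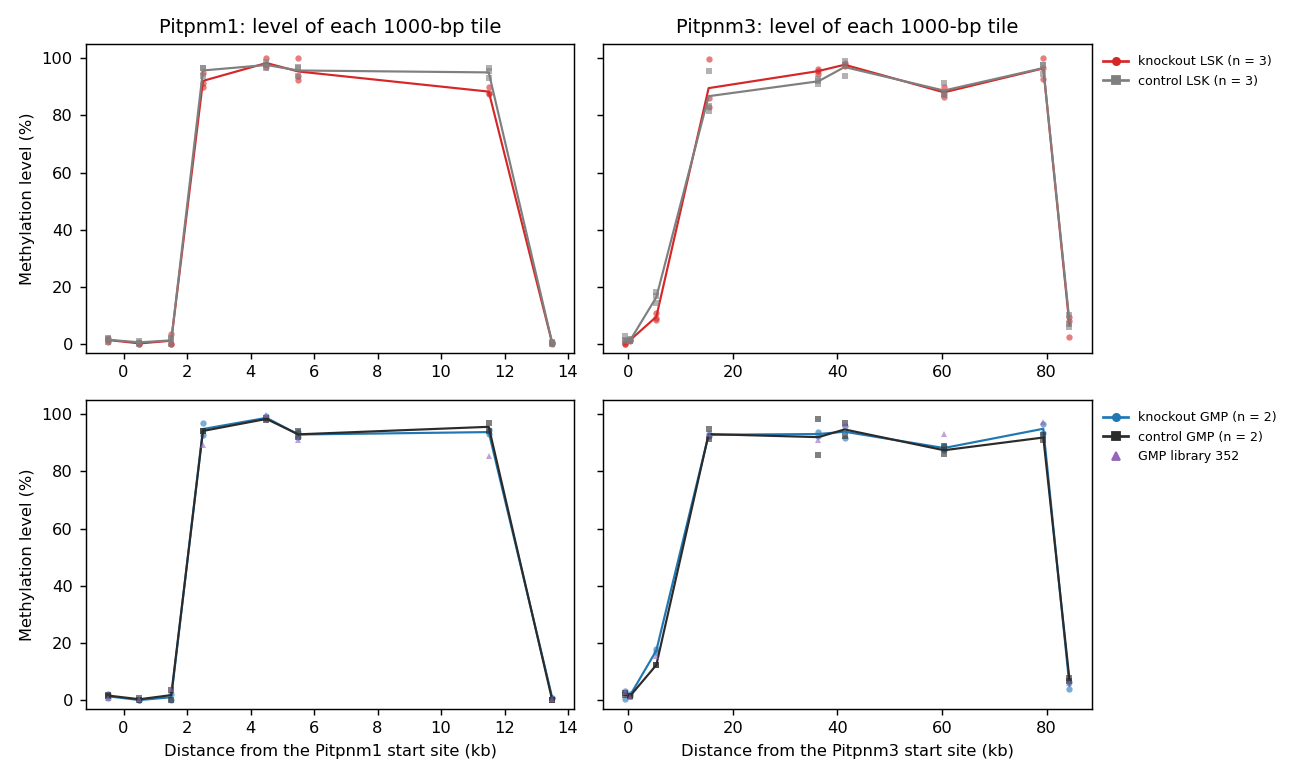
Methylation level in percent (y) of each 1000-bp tile of Pitpnm1 (left) and Pitpnm3 (right) against distance from the first start site in kb (x), LSK above and GMP below. Points are libraries, triangles library 352, and lines join group means. Knockout and control lines nearly coincide in GMP, and the Pitpnm1 tile 11.5 kb in and the Pitpnm3 tile 5.39 kb in lie lower in knockout LSK.

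Control GMP cells were also set against control LSK cells, to see whether the same tiles differ between the progenitor stages of control animals. The control libraries are shared with the knockout comparisons, so the values stand side by side and no relation between them is drawn. No tile of the 3 genes was called, against 0.81% of all tiles lower and 0.0929% higher in control GMP. At an unadjusted p under 0.05 there were 11224 tiles in all. In the tile at 124215001 the pooled level was 67.0% in control GMP and 45.1% in control LSK, a difference of 21.9 points (quasi-binomial test, adjusted p = 0.0767). At 124221001 it was 17.5% in control GMP and 5.21% in control LSK, a difference of 12.3 points (adjusted p = 0.0540, quasi-binomial test). At 124214001 it was 39.2% in control GMP and 25.7% in control LSK, a difference of 13.5 points (adjusted p = 0.317, quasi-binomial test). Both control GMP libraries lay above all control LSK libraries in 9 of 34 Pitpnm2 tiles, among them 5 of the 6 tiles of the stretch, and below them in 5, against 13.9% above and 18.3% below over all tiles. The mean level of Pitpnm2 was 49.9% ± 0.336 in control GMP (SD, n = 2) and 48.8% ± 0.284 in control LSK (SD, n = 3), with an exact two-sided permutation p of 0.1, the smallest this design allows. Pitpnm1 averaged 29.7% ± 0.275 in control GMP (SD, n = 2) and 29.9% ± 0.353 in control LSK (SD, n = 3; exact permutation test, p = 0.7). Pitpnm3 averaged 25.9% ± 0.755 in control GMP (SD, n = 2) and 25.8% ± 0.355 in control LSK (SD, n = 3; exact permutation test, p = 1). Weighted by coverage, Pitpnm3 was 4.60 points higher in control GMP (quasi-binomial test, adjusted p = 0.0708), which did not pass. Among tested tiles, the largest differences in Pitpnm1 and Pitpnm3 were -2.76 points at 4105001 and 5.57 points at 72120001, and neither passed (quasi-binomial test, adjusted p = 0.693 and 0.655).

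The wider list of 53 genes for the making, transfer and breakdown of phosphoinositides, among them the smaller transfer proteins Pitpna, Pitpnb and Pitpnc1, the VAP anchors and the phospholipases C, was measured as gene levels. Of 51 measured, 0 were called lower and 0 higher in knockout GMP, and 0 in either direction in control GMP against control LSK or in knockout LSK. The background was 0.666% of genes called lower and 0.582% higher between control cells, and 0.362% lower in knockout LSK. At an unadjusted p under 0.05 there were 2 of 51 in knockout against control GMP, beside 6.54% of all genes, and 15 of 51 in control GMP against control LSK, beside 20.4% of all genes. The 2 in GMP were Esyt3, a tether between endoplasmic reticulum and plasma membrane, and Dgki, a diacylglycerol kinase. Esyt3 had 33.9% in knockout GMP and 27.5% in control GMP (adjusted p = 0.712), and Dgki had 39.9% in knockout GMP and 34.7% in control GMP (adjusted p = 0.761, quasi-binomial test for both). The median difference of the list in GMP was 0.216 points, beside -0.0804 points over all genes.

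The genes whose coverage-weighted level followed that of Pitpnm2 most closely over the 10 assigned libraries were Gm36809, Lrrfip1, Pcdhga12, Dgkg and Pcdhgc3. Likeness was the root mean square difference after each gene's own mean was subtracted, and it was 0.917 to 1.17 points among 16115 genes with at least 20 C positions. The coverage-weighted level of Pitpnm2 ranged over 11.1 points. Its difference between knockout and control GMP had another sign than that of the mean over positions. Likeness was not computed on the mean over positions. Among these genes, Dgkg, a diacylglycerol kinase, is on the phosphoinositide list, with mean levels of 44.5% in knockout LSK, 48.3% in control LSK, 51.8% in knockout GMP and 50.1% in control GMP. Pcdhga12 and Pcdhgc3 overlap and share C positions. For Pitpnm1 the nearest were Lysmd2, Cx3cl1, Bcl9, Adamts14 and Cux1, at 1.27 to 1.56 points. The coverage-weighted level of Pitpnm1 ranged over 14.2 points, from 22.1% in knockout LSK 1333 to 36.3% in control GMP 349. Its mean over positions stayed between 27.8% and 30.3%, and likeness on that mean was not computed here either. Pitpnm3 ranged over 7.41 points and no gene was sought for it.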

How the data were processed

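CpG methylation was read in 11 libraries. The deposited tables give, per the file headers, a coverage (a count of reads) for each C position and what percent of them showed C or T. The submitters' processing notes name Bismark, mm10 and GRCm38, with no version or role. Listed positions had at least 10 reads, so an unlisted position may have had fewer than 10 reads. Multiplying coverage by the deposited percent gave the methylated reads, and 100% of these products were whole within the rounding of the percent columns. Positions outside the numbered and sex chromosomes, 32 to 59 per library, were left out.

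The 2 strands of a CpG were kept as separate positions. Levels were pooled over positions listed in all 10 assigned libraries, in fixed 1000-bp tiles with at least 3 positions and in gene windows (span and 1000 bp either side) with at least 5. Pooled levels weight positions by coverage; the mean over positions weights them equally. Reads were compared by a quasi-binomial model with 4 groups and all 10 libraries, since 2 against 2 libraries leave few degrees of freedom. Dispersions were moderated by squeezeVar of limma 3.58.1 in R 4.3.3, trended on log coverage, with a floor of 1. P-values of the F test were adjusted by Benjamini-Hochberg over every feature tested. Calls needed an adjusted p under 0.05 and 20 points (tiles) or 10 points (genes). The LSK background was fitted on the 6 LSK libraries at their own positions. Gene means were compared with exact two-sided permutation tests over libraries. The procedure was tested on simulated data.

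The genes, gene lists and tests were chosen with earlier results of these data known. Tiles named with all their values were those past or just outside the LSK threshold and, per gene, the 3 with the largest difference in GMP and between control cells; further ones are named as chosen later. Alternatives were another prior, a coverage minimum of 20, limma on logit levels with 0.5 reads added, Fisher's exact test on summed reads, only the compared groups, at least 5 positions per tile, leaving out 5-Mb windows where the groups list different positions, and leaving out each library. None of the 3 genes lies in such a window. For knockout against control GMP, however, such windows covered chromosome 5 from 75 to 115 Mb, and the nearest lay 9.12 Mb from Pitpnm2. What sets them apart was not tested. Reads carry no molecular identifiers, and a read is counted at each C position it covers. Wilson intervals treat these counts as independent, so they cover no more than counting error and may be too narrow.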

Additional observations from a re-analysis of the deposited data

Results flagged for a closer look

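GMP library 352, whose labels conflict and which entered no comparison, had levels at least 20 points below both control GMP libraries in 8 of 34 Pitpnm2 tiles, a signal outside the compared data, beside 2.41% of all tiles. Its level was 27.3% at 124219001 (95% Wilson interval 22.9 to 32.3, 344 reads), 12.5% at 124215001 (9.35 to 16.5, 328 reads), 7.87% at 124214001 (5.34 to 11.4, 305 reads) and 57.3% at 124213001 (53.2 to 61.3, 571 reads). It was 59.2% at 124218001 (50.9 to 66.9, 142 reads), 19.1% at 124193001 (14.2 to 25.2, 194 reads), 71.3% at 124210001 (63.6 to 78.0, 150 reads) and 36% at 124120001 (31.4 to 40.8, 400 reads). These read counts are summed over the C positions of a tile, so a read covering several positions is counted at each. The intervals treat the counts as independent and may therefore be too narrow. In each of these tiles library 352 lay below both knockout GMP libraries too. It was below the 4 assigned GMP libraries in 16 of 34 Pitpnm2 tiles, 3 of 8 Pitpnm1 tiles and 1 of 9 Pitpnm3 tiles, and above all 4 in 2 tiles of each gene. Over all tiles it was below them in 28.6% and above them in 15%. It also listed none of the 5 Dnmt3a positions that were missing in knockout LSK. Of the 356 Dnmt3a positions listed in all control libraries it listed 330, against 347 to 356 in the knockout libraries.

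In 2 tested tiles, every knockout library lay on one side of its controls in LSK and on the other in GMP, and this difference between cell types was not tested. In the Pitpnm3 tile at 72130001 to 72131000 the means differed by -6.84 points in LSK and by 5.07 points in GMP. In the Pitpnm2 tile at 124123001 to 124124000 they differed by -2.41 points in LSK and by 1.42 points in GMP. The LSK contrast chose the genes.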

How the results depend on the processing

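No paired analysis was possible because no library number occurs in more than one group. The called Pitpnm2 tiles in GMP kept their direction in all 11 alternatives run; 124219001 kept its call in 6 and 124215001 in 2. Counts of features passing the thresholds moved with the test. Tiles in GMP, 97 in the fit reported, were 14 by limma on logit levels, 794 by Fisher's exact test, 0 with only the 2 compared groups, 48 without the windows of group-specific positions, and 0 to 49 leaving out a library. GMP genes were 2 by limma, 469 by Fisher's exact test, 0 with the 2 groups alone and 0 to 1 leaving out a library. Control tiles were 1581 by Fisher's exact test, 417 with at least 5 positions, and 485 to 796 leaving out a library. Control genes were 1399 by Fisher's exact test, 451 with the 2 groups alone, and 24 to 331 leaving out a library. LSK tiles were 451 by limma, 533 with at least 5 positions, and 386 to 1294 leaving out a library. LSK genes were 50 by limma, 508 by Fisher's exact test and 0 to 112 leaving out a library. Fisher's exact test ignores the spread between libraries; other causes were not tested.

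Several small differences of gene means changed sign. Weighted by coverage, knockout minus control GMP was 0.497 points in Pitpnm2 and 0.396 in Pitpnm3, knockout minus control LSK in Pitpnm3 was 0.266, and control GMP minus LSK in Pitpnm1 was 2.93. With all listed positions, knockout minus control was 0.674 in GMP and 0.642 in LSK for Pitpnm1, and 0.711 in LSK for Pitpnm3. Leaving out a library gave -0.676 to 0.392 for Pitpnm3 in GMP, -0.423 to 0.646 for Pitpnm3 and -0.396 to 0.00121 for Pitpnm1 between control cells. The Pitpnm2 mean kept its sign in GMP when a library was left out (-4.21 to -3.08) and in LSK with all listed positions (-3.78). The tiles at 4102001 (-1.30 to 2.64 points) and at 72099001 (-5.27 to 7.52) also changed sign when a GMP library was left out. The cause was not tested.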
